A study of Mus musculus with 2 samples.

Results

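The integrated stress response genes described here are 10 listed mouse genes: Eif2ak1, Atf4, Atf5, Ddit3, Trib3, Asns, Chac1, Ppp1r15a, Ddit4 and Sesn2. They were listed by name, with earlier results of these data known, and each symbol matched 1 of the 43346 Ensembl gene rows of the tables. The libraries were made from total RNA of G1E-ER4, an immortalized mouse erythroid line whose labels give the strain C57BL/6J, male sex and a postnatal stage. G1E cells lack the transcription factor GATA1, and the ER4 derivative carries GATA1 joined to the hormone-binding part of the oestrogen receptor, so that the factor works when oestradiol is bound. Cells for both libraries had been kept with 17beta-estradiol at 10 nM, over 24 h. Per the labels, they are biological replicates 1 and 2. These 2 libraries form 1 group of 1 cell line, so there is no untreated group, and levels, ratios within a library and differences between the replicates are described, with no effect of oestradiol tested.

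The integrated stress response is a translational control pathway in which kinases phosphorylate the initiation factor eIF2. This lowers protein synthesis in general and lets a few mRNAs with short upstream reading frames, Atf4 first among them, be translated more. The transcription factor ATF4 then acts on genes for amino acid supply, redox balance, feedback and cell death. In erythroid cells the kinase encoded by Eif2ak1, the haem-regulated inhibitor HRI, ties globin synthesis to the haem supply. RNA levels do not show the phosphorylation of eIF2 or the translation of ATF4, and neither was measured.

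Replicate 1 held 62080996 expected counts and replicate 2 held 41051158, and the values of the tables were not the same in both. By chi-square over 12232 genes their counts differed by 75.8 per degree of freedom, more than counting error alone gives, which does not show whether the cultures were separate. TPM, a count divided by effective length and scaled to a fixed sum, is the unit of every level below. Nuclear protein-coding genes held 14.1% and 14.4% of that sum, so their TPM values are low in absolute size. The 12 erythroid markers were above 1 TPM in both libraries, led by Hbb-bs at 985 and 1629 TPM and Hba-a2 at 930 and 1106 TPM. Of the markers of other blood cells, 1 of 12 myeloid, 0 of 10 mast cell, 4 of 11 megakaryocyte and 0 of 10 lymphocyte genes reached 1 TPM in both. Summed over their lists they stood at 1.87 and 3.15 TPM (highest Fcgr3), 1.79 and 1.81 TPM (highest Mcpt2 by the mean, Cpa3 in replicate 2), 13.6 and 16.5 TPM (highest Tubb1), and 0 and 0.12 TPM (highest Nkg7 and Ighm). Among those listed at 0 TPM in both libraries were Mcpt8, Vwf and the lymphocyte genes Cd3e, Cd3d, Cd4, Cd8a and Cd79a, and no myeloid gene was. The megakaryocyte genes above 1 TPM were Tubb1 at 6.77 and 9.64, Itga2b at 2.04 and 1.70, Itgb3 at 1.88 and 2.10, and Gp1ba at 1.84 and 1.44 TPM. Fewer cells of a type and less RNA per cell cannot be told apart in such bulk samples.

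Most of the genes were clearly present, and 3 were below 1 TPM. A level of at least 1 TPM in both libraries was reached by 7 of the 10 genes, and the share over nuclear protein-coding genes was 36.3%. Ddit3, Asns, Ppp1r15a, Eif2ak1 and Atf4 were above 20 TPM in both, whereas Trib3, Ddit4 and Chac1 were below 1 TPM in both. The median of the 10 was 12.9 TPM in replicate 1 and 13.4 TPM in replicate 2 (13.1 ± 0.325, SD, n = 2). Over the 21461 nuclear protein-coding genes the median was 0.01 and 0.03 TPM, and over the 7781 of them at 1 TPM or more in both libraries it was 6.44 and 6.38 TPM. Between neighbours in the order of level, the mean ratio was 3.09 for Ppp1r15a to Eif2ak1, 2.398 for Atf5 to Sesn2, 4.65 for Sesn2 to Trib3 and 2.35 for Trib3 to Ddit4, each with the same sign in both libraries and a log2 mean larger than its SD. Ddit4 was at least 15.7-fold higher than Chac1 in replicate 1 and 8.41 times as high in replicate 2. The 95% counting interval of the latter ratio, from the count of Chac1 alone, was 3.86 to 22.9. The 10 genes thus spanned from a high place among protein-coding genes to the limit of detection.

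**Figure D1:**
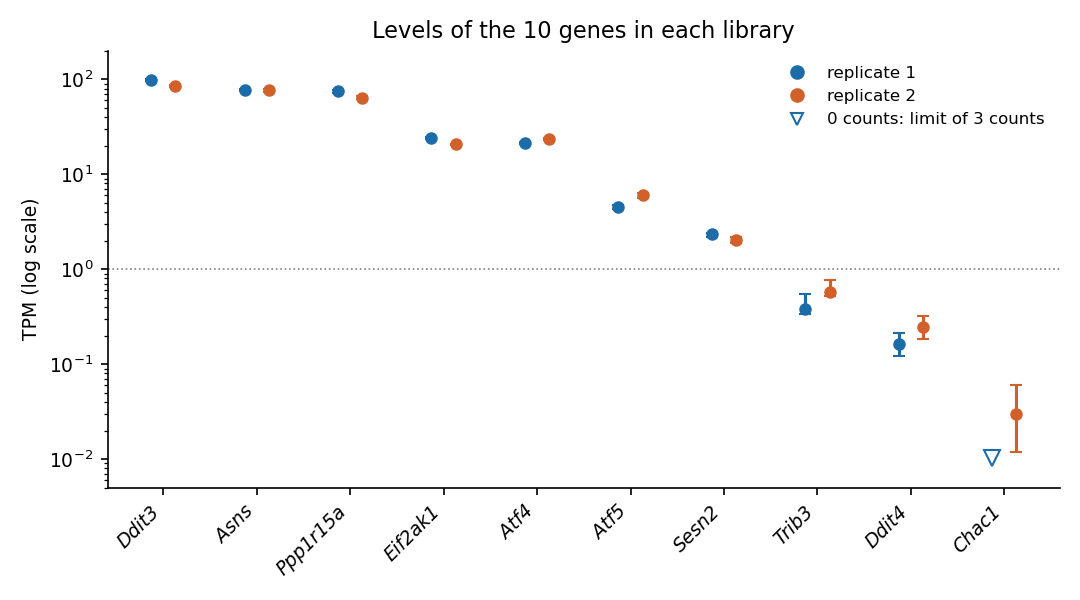
Level of each of the 10 genes in replicate 1 (blue) and replicate 2 (orange), in TPM on a log axis; bars are the deposited credible intervals and the dotted line marks 1 TPM. The first 5 genes lie above 20 TPM in both libraries, and Chac1 in replicate 1 is drawn as an open triangle at the level of 3 counts, 0.0102 TPM, because its count there was 0.

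Eif2ak1, the gene of the haem-regulated kinase, was the most abundant of the 4 eIF2 kinase genes. It stood at 24.3 TPM in replicate 1 and 20.7 TPM in replicate 2, from 19102 and 11333 counts (22.5 ± 2.52 TPM, SD, n = 2). Its place among the 21461 protein-coding genes was 1147 and 1349 (ENSMUSG00000029613.11, chr5:143817788-143904251, plus strand, GRCm38). Eif2ak2, the kinase PKR that responds to double-stranded RNA, stood at 5.57 and 5.94 TPM. Eif2ak4, the kinase GCN2 that responds to uncharged tRNA, stood at 2.48 and 2.62 TPM. Eif2ak3, the kinase PERK of the endoplasmic reticulum, stood at 1.98 and 1.73 TPM. All 4 kinases therefore passed 1 TPM in both libraries, and Eif2ak1 was above each of the other kinases in both.

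Within a library the ratio of Eif2ak1 to Eif2ak2 was 4.36 and 3.49 (log2 1.97 ± 0.228). The ratio to Eif2ak4 was 9.80 and 7.92 (log2 3.14 ± 0.218), and that to Eif2ak3 was 12.3 and 12.0 (log2 3.60 ± 0.024). A pair of genes is called different in level here where the log2 ratio has the same sign in both libraries and its mean is larger than its SD. All 3 kinase pairs met that rule, as did each of the 19 pairs of related genes compared in all, with 1 of them, Ddit4 to Ddit4l, no longer called when posterior mean TPM was used. The share of all gene pairs that would meet the rule was not measured, so the number called is not a result about these pairs. With 2 libraries an exact two-sided sign-flip test cannot give less than p = 0.5, so no p is given for any pair. Against Alas2, the enzyme that begins haem synthesis in red cells, at 81.2 and 84.2 TPM, Eif2ak1 was lower in both libraries, at 0.299 and 0.246 of its level. The repressor gene Bach1, whose protein is released from DNA when haem binds, stood at 45.4 and 36.0 TPM, and Hmox1, the haem oxygenase, at 3.70 and 2.83 TPM.

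Eif2ak1 gave mostly its full-length coding form. Eif2ak1-201, of 4330 bases, held 89.4% and 90.4% of the gene's TPM (89.9 ± 0.658%). The forms annotated with a retained intron together held 10.6% and 9.64%, beside a median of 11.7% over the 3485 expressed genes that have such a form. On the opposite strand, exons of Aimp2, a scaffold protein of the tRNA synthetase complex at 11.9 and 13.7 TPM, share 487 bases with exons of Eif2ak1. Whether strand was used in counting is not given in the sources used here, so reads from those bases could belong to either gene.

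The parts that join kinase and initiation factor were present too. Of 7 genes for kinase partners and the mitochondrial relay, 7 were at 1 TPM or more in both libraries. Dele1, which carries mitochondrial stress to HRI, stood at 4.42 and 5.22 TPM, and Oma1, the protease that cuts its protein, at 4.11 and 4.47 TPM. Higher in that list were Impact, an inhibitor of GCN2, at 19.9 and 15.5 TPM and Abcf1 at 19.3 and 18.4 TPM. Of 11 genes for eIF2, its exchange factor eIF2B and related factors, 10 reached 1 TPM in both, with list medians of 8.76 and 10.0 TPM. The highest by the mean were the eIF2 subunit genes Eif2s2 at 31.3 and 27.9 TPM and Eif2s3x at 25.5 and 27.4 TPM, and Eif2b2, of eIF2B, at 18.2 and 22.0 TPM. The exception, the Y-linked Eif2s3y, had 0 and 4 counts, although the labels give male sex. The reason for this low level was not tested.

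Atf4, the central transcription factor of the response, was at the level of Eif2ak1 and above its relative Atf5. It stood at 21.3 TPM in replicate 1 and 23.7 TPM in replicate 2, from 6638 and 5080 counts (22.5 ± 1.75 TPM, SD, n = 2), at places 1339 and 1159 (ENSMUSG00000042406.7, chr15:80255184-80257541, plus strand). Atf5, whose protein takes part in the mitochondrial branch of the response, stood at 4.56 and 6.00 TPM, from 1507 and 1361 counts (5.28 ± 1.02 TPM, SD, n = 2; ENSMUSG00000038539.10, chr7:44812256-44816658, minus strand). Atf4 was 4.66 and 3.96 times as high as Atf5 (log2 2.10 ± 0.168). Eif2ak1 was the higher in replicate 1 and Atf4 in replicate 2, so the order of that pair was not settled by these libraries. On the opposite strand Atf5 shares 82 exon bases with Il4i1, at 0.02 and 0.17 TPM, and with Nup62, which was not analysed here.

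The tables list 1 transcript of Atf4, and Atf5-201 held 96.5% and 97.2% of the TPM of Atf5. Both mRNAs have the upstream reading frames for which they are known. The leader of Atf4-201, the part before the main start codon, has 594 bases in GENCODE M21 and holds 3 ATG triplets. Of these, 2 open frames that stop before the main ATG and 1 opens a frame that runs past it. The leader of Atf5-201 has 373 bases with 2 ATG triplets, 1 of each kind. Among 7731 expressed genes with a leader the median length was 149 bases, 46.6% had an upstream ATG and 15.4% had a frame that runs past the main ATG.

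Other leaders of the 10 genes differed in this respect. Ddit3-201 has 186 leader bases and 2 upstream ATG triplets, Ppp1r15a-201 has 283 bases and 3, Asns-201 has 169 bases and 2, and Sesn2-201 has 348 bases and 1. In these 4 leaders each upstream frame stops before the main ATG. The leaders of Eif2ak1-201, Trib3-201, Chac1-201 and Ddit4-201 have 103, 176, 174 and 198 bases and hold no ATG. A frame found in the sequence is not a measure of its translation.

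Ddit3, which encodes the C/EBP-family factor CHOP, had the highest gene level of the 10. It stood at 98.2 TPM in replicate 1 and 85.6 TPM in replicate 2, from 11494 and 6816 counts (91.9 ± 8.95 TPM, SD, n = 2). Its place was 212 and 247 among the 21461 protein-coding genes (ENSMUSG00000025408.11, chr10:127290774-127296288, plus strand). It was 4.62 and 3.61 times as high as Atf4 (log2 2.03 ± 0.253). Its complete coding form alone, Ddit3-201, stood at 39.8 and 36.1 TPM, which is nearer to Atf4 but above it in both libraries. CHOP acts as a dimer with other bZIP proteins such as those of the C/EBP family, of which Cebpb stood at 3.84 and 5.0 TPM and Cebpg at 6.31 and 7.30 TPM. Nfe2l2, a further bZIP gene of the list, stood at 22.3 and 20.7 TPM. Ddit3 was thus 25.6 and 17.1 times as high as Cebpb (log2 4.39 ± 0.410).

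Atf3, another stress-induced bZIP gene often measured beside Ddit3, was almost absent, with 3 counts in replicate 1 and 1 count in replicate 2. The ratio of Ddit3 to Atf3 was 11444 in replicate 1, with a 95% counting interval of 3916 to 55492, and 3627 in replicate 2, with an interval of 651 to 143247. Of the 12 bZIP genes listed, 7 reached 1 TPM in both libraries, and Jdp2 and Cebpd had 0 counts. The level of Ddit3 was also above that of Hspa5, the chaperone BiP of the unfolded protein response, which stood at 48.8 and 50.9 TPM. That ratio was 2.01 and 1.68 (log2 0.88 ± 0.183), and it depends on division by length, since counts that were not divided by length gave the opposite sign. It also depends on the forms counted. Ddit3-201 alone, at 39.8 and 36.1 TPM, was below the gene level of Hspa5 in both libraries. With all reads of Ddit3 over the length of that form, the level was 81.5 and 71.4 TPM, above Hspa5.

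The reads of Ddit3 were divided among 3 annotated forms. The full coding form Ddit3-201, of 890 bases, held 40.5% and 42.2% of the gene's TPM (41.4 ± 1.20%). A 600-base form, Ddit3-203, which is annotated as incomplete and whose every base lies within exons of Ddit3-201, held 44.5% and 42.4% (43.4 ± 1.43%). The retained-intron form Ddit3-202 held 15.0% and 15.4% (15.2 ± 0.233%), above the median of 11.7% for such forms. By counts in place of TPM, Ddit3-201 had the larger share, at 49.7% on average, Ddit3-203 had 29.9% and Ddit3-202 had 20.4%. Opposite-strand exons of Mars share 68 bases with Ddit3, and a further M21 gene of the same name shares 105 bases on the same strand and was not analysed here.

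Ppp1r15a, which encodes the GADD34 subunit that brings a phosphatase back to eIF2, was in the same upper range. It stood at 74.9 TPM in replicate 1 and 64.3 TPM in replicate 2, from 26652 and 15597 counts (69.6 ± 7.49 TPM, SD, n = 2; ENSMUSG00000040435.10, chr7:45522916-45526268, minus strand). Its constitutive relative Ppp1r15b stood at 56.98 and 59.43 TPM. The ratio of Ppp1r15a to Ppp1r15b was 1.31 and 1.08 (log2 0.25 ± 0.199), so the difference was small, and it had the opposite sign in counts that were not divided by length. The complete coding form Ppp1r15a-201 alone, at 55.9 and 47.7 TPM, was below the gene level of Ppp1r15b in both libraries. All reads of Ppp1r15a over the length of that form gave 61.0 and 51.9 TPM, above Ppp1r15b in replicate 1 and below it in replicate 2. The catalytic subunit genes Ppp1ca, Ppp1cc and Ppp1cb stood at 123 and 142, at 37.5 and 41.3, and at 25.54 and 24.96 TPM. All 5 phosphatase genes were therefore at 20 TPM or more in both libraries.

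Most reads of Ppp1r15a lay on its full coding form. Ppp1r15a-201, of 2333 bases, held 74.7% and 74.2% of the TPM (74.4 ± 0.396%) and 91.8% of the counts on average. A 389-base form, ENSMUST00000139268.1, held 21.3% and 22.0% of the TPM (21.6 ± 0.453%) from 614 and 345 counts. The identifier is in the deposited tables and not in M21, so its type and position are not given here. Its counts are 2.26% of those of the gene on average. Such a short form weighs heavily in TPM, because few counts are divided by few bases. Tulp2 shares 12 exon bases on the opposite strand, at 2.43 and 2.48 TPM.

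**Figure D2:**
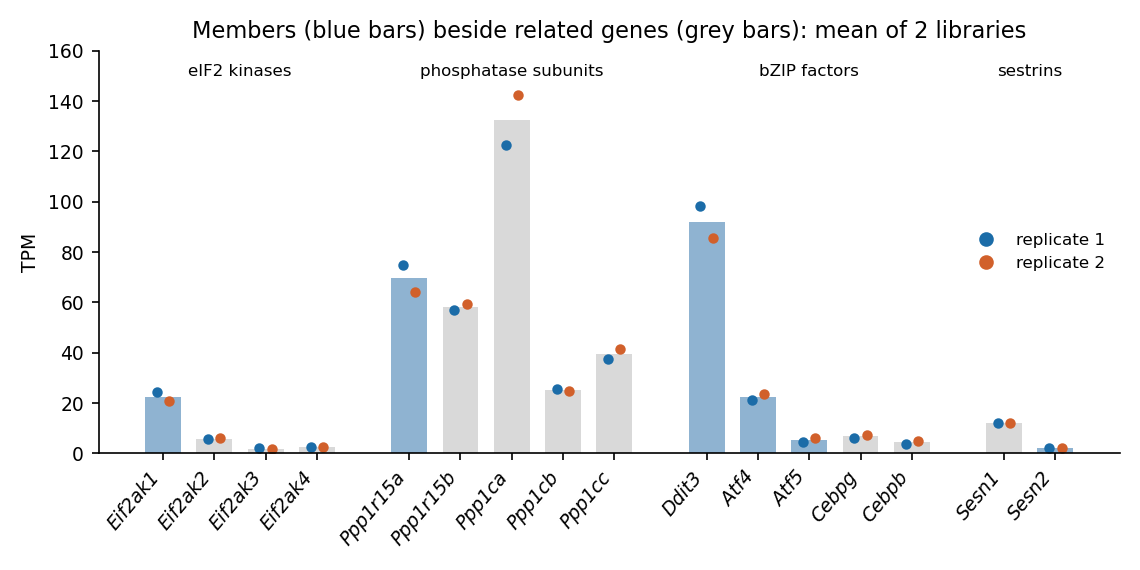
Members (blue bars) beside related genes (grey bars) as the mean TPM of 2 libraries, with a point for each library; the axis is linear and starts at 0. Eif2ak1 is the highest of 4 eIF2 kinases, Ppp1r15a lies near Ppp1r15b, Ddit3 is above the other bZIP genes shown, and Sesn2 is below Sesn1.

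Trib3, a pseudokinase that restrains ATF4 and CHOP and is itself among their usual targets, was low. It stood at 0.38 TPM in replicate 1 and 0.58 TPM in replicate 2, from 141 and 149 counts (0.480 ± 0.141 TPM, SD, n = 2; ENSMUSG00000032715.9, chr2:152337422-152344032, minus strand). The deposited intervals, 0.340 to 0.542 and 0.520 to 0.770 TPM, overlap. The other tribbles genes were lower still, Trib1 with 0 and 2 counts and Trib2 with 0 and 1 count. In replicate 1 Trib3 was at least 83.9-fold higher than Trib1 and at least 59.8-fold higher than Trib2, taking 3 counts for a count of 0. In replicate 2 the ratios were 147 (counting interval 40.7 to 1214) and 328 (58.9 to 12969).

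Asns, the asparagine synthetase that is a standard target of ATF4, was among the highest of the 10 genes, and Chac1, another standard target, was at the limit of detection. Asns stood at 77.2 TPM in replicate 1 and 76.7 TPM in replicate 2, from 19413 and 15299 counts (76.9 ± 0.347 TPM, SD, n = 2; ENSMUSG00000029752.8, chr6:7675169-7693254, minus strand). Chac1, which breaks down glutathione, had 0 counts in replicate 1, where 3 counts would be 0.0102 TPM, and 6 counts or 0.03 TPM in replicate 2 (ENSMUSG00000027313.3, chr2:119351229-119354381, plus strand). Asns was therefore at least 7572-fold higher than Chac1 in replicate 1 and 2579 times as high in replicate 2, with a counting interval of 1185 to 7026. Asns was 203 and 132 times as high as Trib3 (log2 7.36 ± 0.438). These 3 genes, all known targets of ATF4, thus differ widely in level, and the part of ATF4 in their levels here was not tested.

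The promoters of the same 3 genes are shown because they share a sequence. Windows from 250 bases before to 50 bases after each RefSeq start were searched on both strands for TGATGNAA, the core of the C/EBP-ATF response element that ATF4 dimers bind. Of the 10 genes, Trib3, Asns and Chac1 had a match, in 3 of the 11 windows of these genes, and of 32817 windows in all 3.97% had one. The stretches below are from RefSeq, GRCm38.p6, printed on the strand of the gene, 5′ to 3′, with the match in capitals.
Asns, chr6:7693225-7693272, minus strand: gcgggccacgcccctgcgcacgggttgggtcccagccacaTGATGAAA
Trib3, chr2:152344031-152344086, minus strand: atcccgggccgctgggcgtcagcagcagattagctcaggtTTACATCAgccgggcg
Chac1, chr2:119351009-119351096, plus strand: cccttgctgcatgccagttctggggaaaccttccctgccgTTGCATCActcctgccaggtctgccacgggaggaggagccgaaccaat

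The match of Asns reads along the gene and begins 23 bases before the RefSeq start, which is 23 bases after the start in GENCODE M21, so it lies in an exon of that annotation. Those of Trib3 and Chac1 read on the opposite strand, 15 bases after and 193 bases before their RefSeq starts. The match of Trib3 is upstream of the GENCODE start, so its side also depends on the annotation. A gene near 77 TPM and 2 genes below 1 TPM thus each hold a match to this 8-letter pattern, which leaves 1 letter open. The matches differ in that letter and in place, and whether they bear on the levels was not tested. A search for AGATAA, a core GATA site, found 1 match each for Ddit3, 7 bases after the start, and Ppp1r15a, 190 bases before it. Such a match was in 2 of the 11 windows of the 10 genes and in 11.2% of all windows. Both motifs were chosen with the levels known, and a match of letters is not evidence of binding.

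The level of Asns included a short form whose share differed between the libraries. The full coding form Asns-201, of 2001 bases, held 63.0% of the gene's TPM in replicate 1 and 75.2% in replicate 2 (69.1 ± 8.62%). Asns-206, a non-coding form of 448 bases at the 3′ end of the gene (chr6:7675470-7677385), held 36.1% and 23.6% (29.9 ± 8.83%). It took 1405 and 591 counts, which are 7.24% and 3.87% of the gene's counts, and 88.0% of its bases lie in exons of Asns-201. Asns-201 alone stood at 48.6 TPM in replicate 1 and 57.7 TPM in replicate 2, so it was higher in replicate 2, while the sum over all forms of the gene was nearly equal.

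The order of the 3 highest genes depends on how such short forms are treated. By gene TPM it ran Ddit3, Asns, Ppp1r15a, with ratios between neighbours of 1.19 (log2 0.25 ± 0.134) and 1.11 (log2 0.15 ± 0.149). With only the leading complete coding transcript of each gene, Asns came first at 53.2 ± 6.39 TPM, then Ppp1r15a at 51.8 ± 5.85 TPM and Ddit3 at 38.0 ± 2.61 TPM (SD, n = 2). With the whole count of each gene divided by the length of that transcript, Ddit3 came first at 76.5 ± 7.12 TPM, and Asns and Ppp1r15a stood at 56.5 ± 5.47 and 56.4 ± 6.44 TPM. In each of the 3 versions these genes were above Atf4 and Eif2ak1. Both alternatives were added after the shares had been seen.

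**Figure D3:**
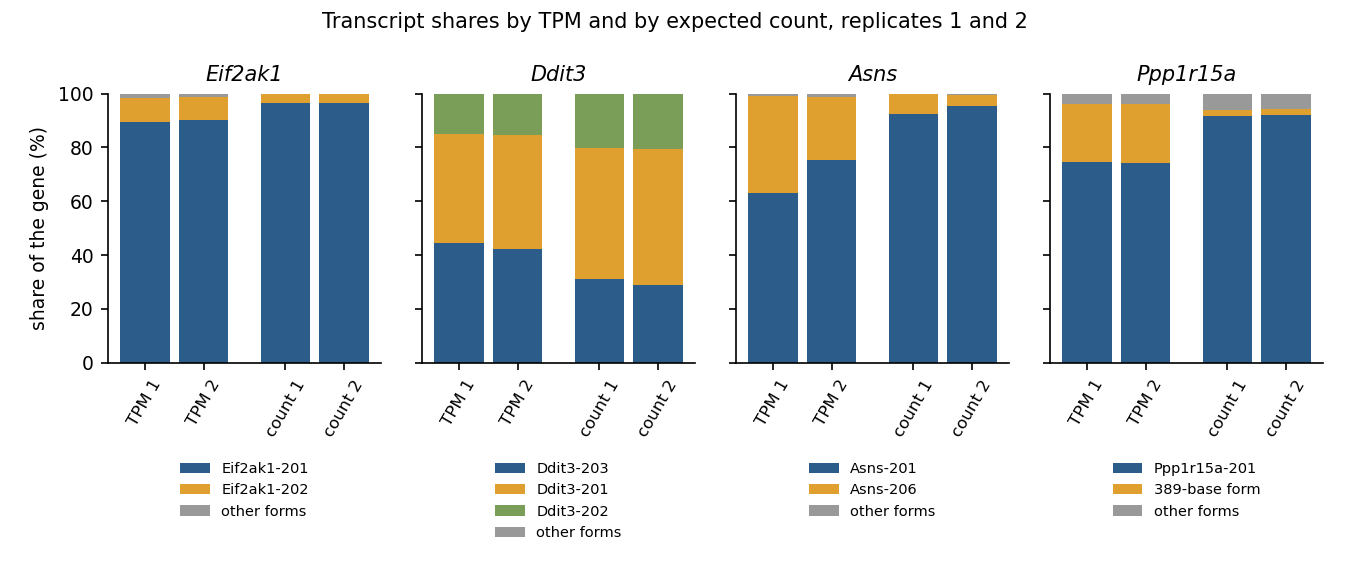
Share of each form in the deposited tables, in percent, of the gene's TPM and of its expected counts in replicates 1 and 2, for the 4 genes with more than 1 sizeable form; each bar adds up to 100%. Asns-206 holds 36.1% and 23.6% of the TPM of Asns but 7.24% and 3.87% of its counts, and the forms of Ddit3 keep nearly the same shares in both libraries.

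Genes of amino acid synthesis were uneven in level. Of 15 such genes, Asns included, 9 reached 1 TPM in both libraries, with list medians of 1.92 and 3.02 TPM. After Asns the highest by the mean of both libraries were Psat1, of serine synthesis, at 16.4 and 21.1 TPM, and the mitochondrial folate enzymes Shmt2 at 7.23 and 12.3 TPM and Mthfd2 at 8.07 and 9.82 TPM. In replicate 1 Got1, at 8.31 TPM, and Aldh18a1, at 8.28 TPM, were above both folate enzymes. Of the other serine synthesis genes in the list, Psph stood at 2.43 and 3.02 TPM and Phgdh had 0 and 3.32 counts. Cth and Gpt2 had 0 counts in both libraries. Of 11 amino acid transporters 6 reached 1 TPM in both, led by Slc3a2 at 23.1 and 25.1 TPM and Slc7a5 at 24.7 and 21.1 TPM, the chains of a transporter of large neutral amino acids. Slc7a3 had 1 and 0 counts and Slc38a1 2 and 12 counts.

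The tRNA synthetase list was present as a whole. Each of its 13 measured genes was above 1 TPM in both libraries, with medians of 15.3 and 19.4 TPM. Among them was Xpot, a gene of tRNA export and not a synthetase, at 8.91 and 10.2 TPM. Sars led at 112 and 135 TPM, followed by Nars at 33.7 and 39.8 TPM and Aars at 30.5 and 35.8 TPM. The lowest were Iars at 7.48 and 10.2 TPM and Cars at 7.65 and 10.4 TPM. All 13 were higher in replicate 2 after TMM scaling, with a median log2 difference of 0.247, and none differed by 2-fold. Of the 9778 genes tested, 48.2% were higher in replicate 2, and whether the list differs from other genes was not tested.

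Chac2, which encodes the constitutive relative of Chac1, was measured at 4.33 and 3.93 TPM from 855 and 543 counts. Chac1 was at most 0.00235 of the level of Chac2 in replicate 1 and was 0.00757 of it in replicate 2. Of the 11 glutathione and redox genes, 9 were at 1 TPM or more in both libraries, among them Gclm at 18.8 and 20.9 TPM, Txnrd1 at 11.2 and 13.7 TPM and Gclc at 8.53 and 9.70 TPM. Below 1 TPM beside Chac1 was the cystine transporter Slc7a11, an ATF4 target, with 7 and 30 counts.

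Ddit4 and Sesn2, which restrain the growth kinase complex mTORC1 under stress, were both low. Sesn2, a leucine-binding sestrin, stood at 2.32 TPM in replicate 1 and 2.05 TPM in replicate 2, from 1560 and 951 counts (2.19 ± 0.191 TPM, SD, n = 2; ENSMUSG00000028893.8, chr4:132492032-132510501, minus strand). Ddit4, also called REDD1, stood at 0.16 and 0.25 TPM, from 50 and 52 counts (0.205 ± 0.0636 TPM, SD, n = 2; ENSMUSG00000020108.3, chr10:59949669-59951834, minus strand). Ddit4 was at 0.0690 and 0.122 of the level of Sesn2 (log2 -3.45 ± 0.581). The most abundant sestrin was Sesn1, usually known as a target of p53, at 12.0 and 11.9 TPM. Sesn2 was at 0.194 and 0.172 of Sesn1 (log2 -2.45 ± 0.119).

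Sesn3 and Ddit4l, the remaining relatives, were close to 0. Sesn3 had 0 and 3 counts, so that Sesn2 was at least 311-fold higher in replicate 1 and 189 times as high in replicate 2 (counting interval 64.6 to 916). Ddit4l had 0 and 2 counts, and Ddit4 was at least 10.3-fold higher in replicate 1 and 44.5 times as high in replicate 2 (counting interval 12.3 to 368). With posterior mean TPM this pair was no longer called (log2 1.89 ± 2.21). Of the 15 genes of this list 9 reached 1 TPM in both libraries, with Eif4ebp1, the translation repressor 4E-BP1, at 9.04 and 8.90 TPM. The tables list 1 transcript each for Sesn2, Ddit4 and Chac1, and the reads of Trib3 were assigned to Trib3-201.

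Wider lists place these levels. Of 22 other genes known to respond to ATF4, 15 reached 1 TPM in both libraries, led by the autophagy genes Sqstm1 at 110 and 101 TPM and Map1lc3b at 75.3 and 66.1 TPM and by Gadd45a at 30.5 and 25.3 TPM. The lowest, Pmaip1, which encodes the death factor NOXA, had 0 and 1 count. Each of 18 genes of the IRE1 and ATF6 arms of the unfolded protein response reached 1 TPM in both, with medians of 11.8 and 9.51 TPM and Calr highest at 80.2 and 73.1 TPM. None of 5 genes for secreted stress signals did. Vegfa led those at 0.61 TPM in each library, Fgf21 had 2 and 0 counts, and Gdf15 had 7 and 0 counts.

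**Figure D4:**
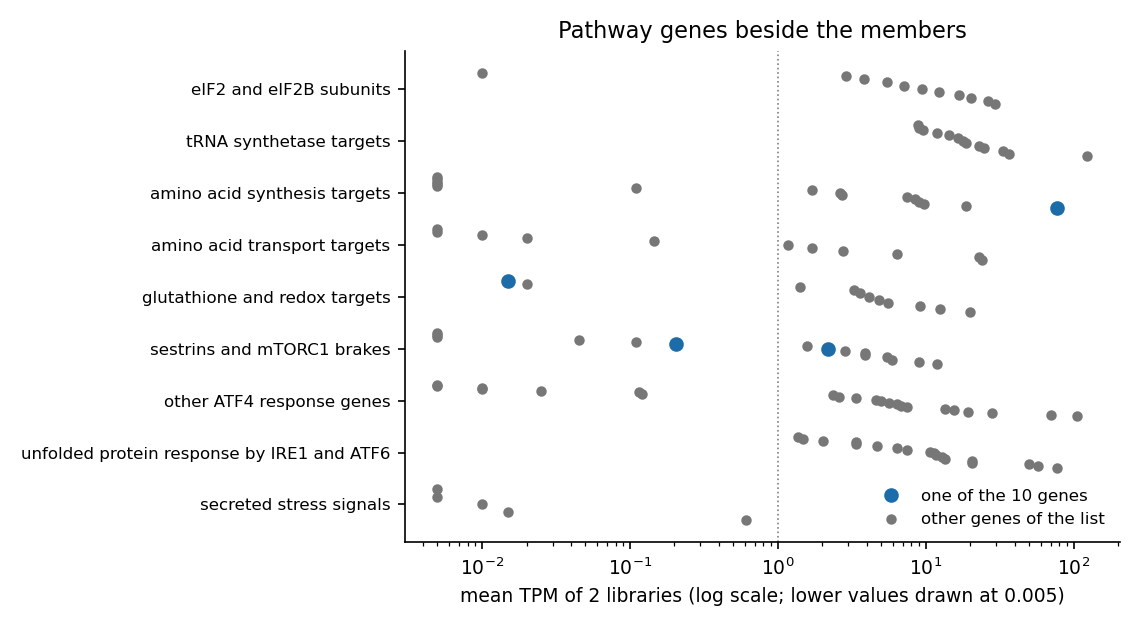
Mean TPM of 2 libraries, on a log axis, for each gene of 9 pathway lists, with members of the 10 in blue, other genes in grey and the dotted line at 1 TPM; means under 0.005 TPM are drawn at 0.005. Every measured gene of the tRNA synthetase list and of the unfolded protein response list lies above 1 TPM. Amino acid synthesis, where Asns is the highest, and transport spread over both sides.

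Between the replicates, no gene with enough counts to compare differed by 2-fold or more. The mean count was below 100 for Ddit4 and Chac1, which were left out, and 100 or more for the other 8 genes. Of these, 4 were higher and 4 lower in replicate 2 after TMM scaling, and 0 differed by 2-fold or more, beside 2.05% of the 9778 genes tested. At 1.5-fold there was 1, Trib3, beside 7.85%. The log2 difference of replicate 2 from replicate 1 was 0.64 for Trib3, 0.42 for Atf5, 0.22 for Asns and 0.18 for Atf4. It was -0.21 for Ppp1r15a, -0.19 for Ddit3 and for Eif2ak1, and -0.15 for Sesn2. For comparison, the median size of this difference over tested genes was 0.156, and its 2.5th and 97.5th percentiles were -0.61 and 0.85. All 8 values thus lay inside the range that holds most genes, and each but that of Sesn2 was larger in size than the median.

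**Figure D5:**
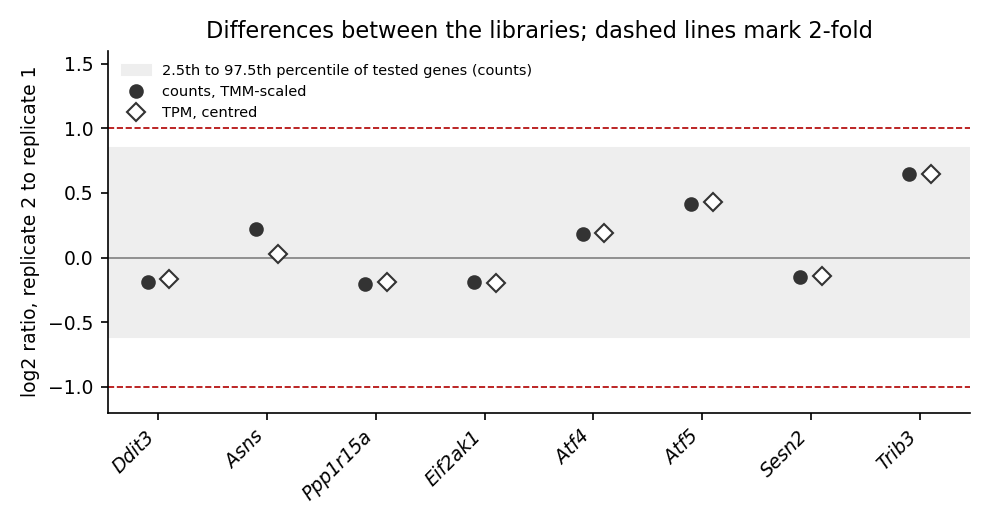
Log2 ratio of replicate 2 to replicate 1 for the 8 genes whose mean count was 100 or more, from TMM-scaled counts (filled circles) and from centred TPM (open diamonds); dashed lines mark 2-fold and the grey band the 2.5th to 97.5th percentile of tested genes. Every point lies between the dashed lines, and Asns is the gene whose circle, at 0.22, and diamond, at 0.02, stand farthest apart.

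For Asns the measures of this difference parted. Its TMM-scaled CPM values were 316 in replicate 1 and 369 in replicate 2, a ratio of 1.17, whereas its TPM ratio was 0.994, or 0.02 on the log2 scale once centred on expressed protein-coding genes. The effective length of the gene, which weights its forms by their estimated shares, was 1226 bases in replicate 1 and 1402 bases in replicate 2. After centring, each of the 8 genes had the same sign in counts and in TPM. Of the 7 genes whose mean level was 1 TPM or more, 6 had deposited intervals that do not overlap between the libraries, the exception being Asns, and this held for 48.0% of the 8786 genes at that level. Those intervals cover the assignment and counting of reads within a library, not the difference between cultures.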

How the data were processed

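Total RNA of the 2 libraries was sequenced after ribosomal RNA removal, from 100 ng of RNA with the ScriptSeq kit, per the labels. The authors deposited expected counts per gene and per transcript, per the file headers. They also deposited TPM and FPKM, which are scaled by effective length and by the library, and the percent of each gene's TPM held by each transcript, per the file headers. Per text lists that the authors deposited, genes followed GENCODE M4 on mm10. Aligner, quantifier, their versions, use of strand and the level of the credible intervals are not given in the sources used here.

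Gene symbols, types, transcripts and coordinates were taken from GENCODE M21 (GRCm38), joined on identifiers without version; 42462 of 43346 Ensembl rows matched. A further 26345 rows that name no gene held at most 2.90e-05% of the counts and stayed out. Promoter windows came from RefSeq (GRCm38.p6), and each of the 10 genes had at least 1.

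Levels are means ± SD over the 2 libraries, and differences between them, which may be technical in part, were not tested, since 1 group allows no contrast. For replicate differences, expected counts were rounded to whole numbers and scaled with TMM factors of edgeR 4.0.16 (R 4.3.3), with a prior count of 0.5 and a mean count of at least 100. The step was also run on simulated data with planted changes larger than 2-fold, which does not show how differences near 2-fold are recovered. Values under 0.1 TPM were recomputed from count and effective length for ratios. A gene with 0 counts was given 3 counts as its limit. Counting intervals are exact at 95% for the lower count of a ratio alone. The other count was taken as fixed, in the limits too. These intervals and the limits cover counting error only in the lower count, and reads that carry no molecular identifier may be copies of 1 molecule. Other steps used Python 3.11.

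The members, lists, pairs and motifs were chosen with earlier results of these data known. The text names the 10 genes, up to 3 of the highest and 2 of the lowest other genes of a pathway list, the kinase, phosphatase, tribbles and paired genes, the highest marker of each other cell type, and transcripts with a mean share of at least 10%. Bach1, Got1, Aldh18a1, Psph, Phgdh, Xpot, the other markers of blood cells and the genes whose exons overlap a member fall outside that rule and were added with their values in view. DESeq2 1.42.0 size factors, other thresholds, posterior means, FPKM and undivided counts were tried as alternatives.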

Additional observations from a re-analysis of the deposited data

How the results depend on the processing

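No paired analysis was possible because the 2 libraries form 1 group, so replicate numbers join no samples across groups. Of the 5 main results, the number of genes at 1 TPM or more and the number of pairs called different were within 1.5 times of the values given under the alternatives named here: 7 genes with either library left out, 5 genes at a threshold of 5 TPM and 9 at 0.1 TPM; and 18 pairs with posterior mean TPM, where Ddit4 to Ddit4l (log2 1.89 ± 2.21) was no longer called. The median of the 10 genes, 12.9 to 13.4 TPM with either library left out, became 24.0 TPM over genes at 1 TPM or more, by the construction of that filter. The count of genes that differ 2-fold between the libraries became 1 without a filter on counts (Chac1, from 0 and 6 counts) and 1 at 1.5-fold (Trib3); leaving out a library leaves no such comparison. The number of genes with a leading transcript at 90% or more was 5 by TPM, 5 to 7 with either library left out, and 8 by expected counts. Without division by length, 2 ratios changed sign: Ppp1r15a to Ppp1r15b (log2 -1.01 ± 0.21) and Ddit3 to Hspa5 (log2 -1.28 ± 0.19). With a library left out a pair has no SD, so the call rule cannot be applied, and that setting says nothing of the pairs. FPKM exchanged the places of Eif2ak1 and Atf4. Low counts limit what can be said of Chac1, Ddit4 and Trib3, and of relatives with 0 to 4 counts. In TPM these 3 genes were higher in replicate 2, the library with fewer counts. The median over nuclear protein-coding genes was also higher there, at 0.03 against 0.01 TPM. Listed genes near 0 went both ways, such as Lyz2 with 0 and 17 counts and Gdf15 with 7 and 0. The reason for such differences at low level was not tested.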
